A study of Homo sapiens with 6 samples.

Results

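The genes of the red cell membrane skeleton and of band 3 were followed in K562 cells with induced Flag-PCBP1, namely SLC4A1, ANK1, EPB42, SPTB, EPB41, ADD2, DMTN, TMOD1 and TMCC2. They were chosen by name, with earlier results of these data known, and all 9 of 9 were found by symbol among the 62252 genes into which the transcripts were summed. All 9 had a mean estimated count above 10 in the 6 libraries and were among the 21045 genes tested. K562 is a human leukemia line with red cell features. The cells came from 1 K562 clone with a landing site at the AAVS1 locus, into which a Flag-PCBP1 cassette under a tet-inducible promoter was exchanged, and the stable line selected afterwards was polyclonal. Both groups carry this cassette. Of the 6 libraries, 3 are labelled control and were grown without doxycycline (−Dox), and 3 are labelled PCBP1 OE and were grown with it (+Dox), so the groups differ in the drug as well as in Flag-PCBP1. The dose and the time of Dox for these libraries are not given in the sources used here. No source states that the replicates were separate cultures, and the p-values therefore measure the spread between these samples, which may be technical. PolyA RNA was sequenced, and the estimated counts summed to 84177316, 80104627 and 74766040 in the −Dox replicates and to 70905656, 82263502 and 82449808 in the +Dox replicates.

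The red cell membrane is held in shape by a lattice of spectrin under the lipid bilayer. Long spectrin tetramers meet at short actin filaments, where protein 4.1R, adducin, dematin and tropomodulin hold the junction together. Ankyrin and protein 4.2 tie the lattice to band 3, the chloride and bicarbonate exchanger that spans the membrane. Inherited loss of several of these proteins causes hereditary spherocytosis or elliptocytosis. The members are made in erythroblasts, and 4.1R and ankyrin are known for transcripts that change with the stage of maturation by the choice of exon and of start site. PCBP1 is an RNA-binding protein with a preference for C-rich sequence.

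Sequences of the following kinds bear on the members described below. The first is the alternative exon of EPB41 that codes for part of the spectrin and actin binding domain of 4.1R, an exon known to be included late in red cell development. It is shown with 20 bases of intron on each side, with the exon in capitals, from hg38 chr1:29060402-29060504, plus strand, and the exon itself spans chr1:29060422-29060484. The upstream intron ends in a pyrimidine-rich stretch with a run of C at the left edge of the printed sequence.

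EPB41 63-base exon: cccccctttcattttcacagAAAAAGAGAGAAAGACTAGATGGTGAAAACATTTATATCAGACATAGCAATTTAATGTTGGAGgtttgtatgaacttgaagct

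The second kind is the 130 bases before the main transcript start of the 3 members with the smallest adjusted p among those with a promoter entry in RefSeq (GRCh38.p14). GATA1, the master factor of red cell genes, binds GATA sites, and the letters AGATAA or TGATAA on either strand are in capitals. They are read from chr15:43221019-43221148 (EPB42, minus strand), chr14:64879908-64880037 (SPTB, minus strand) and chr9:97501536-97501665 (TMOD1, plus strand).

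EPB42: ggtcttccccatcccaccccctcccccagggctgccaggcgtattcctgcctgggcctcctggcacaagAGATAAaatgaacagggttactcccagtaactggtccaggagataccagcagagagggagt

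SPTB: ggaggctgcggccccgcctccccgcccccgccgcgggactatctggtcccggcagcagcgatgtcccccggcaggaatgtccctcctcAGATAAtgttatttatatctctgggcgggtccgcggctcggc

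TMOD1: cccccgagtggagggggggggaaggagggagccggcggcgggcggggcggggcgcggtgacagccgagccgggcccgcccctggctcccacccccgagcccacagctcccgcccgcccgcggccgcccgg

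The match begins 61 bases before the start in EPB42 and 42 bases before it in SPTB, and TMOD1 has none in this stretch. EPB42 has 2 matches within 250 bases of its start. Of the 6 members with an entry (EPB41, TMCC2, ADD2, TMOD1, SPTB and EPB42), 3 had a match in the 250 bases before at least 1 listed start, in 3 of 15 windows. Over all 34943 windows of this length, 14.6% held the letters.

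PCBP1, the induced gene, was measured first as a check of the labels. Its counts were not separated between the gene on chromosome 2 and the Flag-PCBP1 cassette. PCBP1 (chromosome 2, 70087477 to 70089203, plus strand) stood at 247.5, 269.5 and 266.9 CPM (read counts scaled to the library's depth, normalized by TMM) in −Dox and at 1030, 936.4 and 1037 CPM in +Dox. The groups did not overlap, in the direction of the labels, and PCBP1 rose by 1.94 ± 0.055 on the log2 scale (SE, n = 3 per group; edgeR quasi-likelihood test, Benjamini-Hochberg adjusted p = 5.22e-10).

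Mean CPM was higher in +Dox for all 9 members, from 7.11-fold for EPB42 to 1.07-fold for EPB41. Of the 9, 7 passed the edgeR test at an adjusted p under 0.05, all 7 higher in +Dox, against 8.16% of all genes tested that were called higher, which is a description since the choice of the 9 was not blind to these libraries. The median log2 fold change of the 9 was 0.56, against 0.006 over all genes. In all 9, the CPM of every +Dox library lay above that of every −Dox library, against 17.4% of all genes. For ANK1 this did not hold once the level was also scaled for transcript length. Only EPB42 was also past the study's fold limit for a DEG, a log2 change of more than 1 in either direction, against 0.737% of genes called as DEGs in this direction. With a library left out, 1 to 3 members were DEGs, beside 231 to 313 DEGs in either direction among all genes tested. The plot of the members by library shows the 6 values of each gene.

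**Figure D1:**
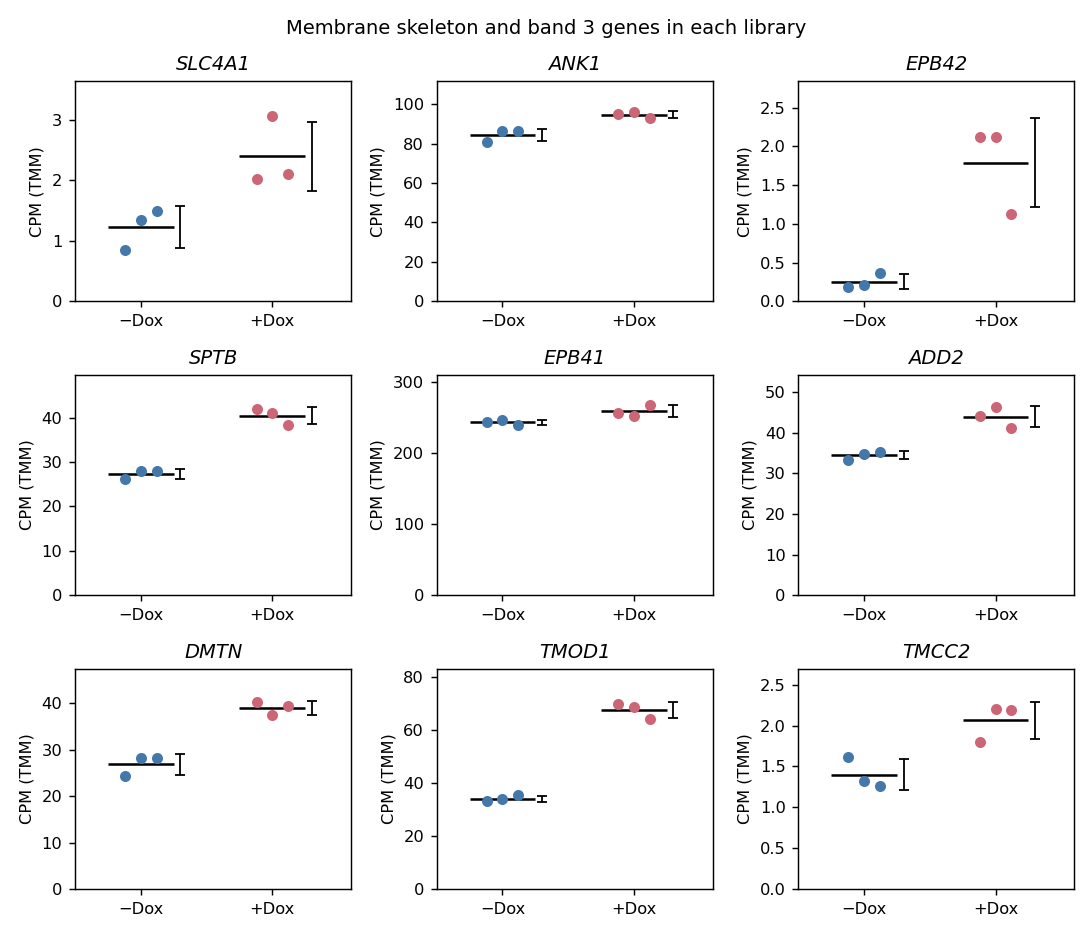
CPM (TMM) of the 9 members in each library, in 9 panels with axes from 0; blue points are −Dox and red points +Dox, black lines are group means and the bars beside them 1 SD (n = 3). In every panel the +Dox points lie above the −Dox points, and EPB42 rises from about 0.252 to 1.79 CPM while EPB41 moves from 242.7 to 258.6.

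Band 3 and its anchors came first in the order of roles. SLC4A1 (band 3; chromosome 17, 44248390 to 44268141, minus strand) was at 0.839, 1.35 and 1.49 CPM in −Dox and at 2.02, 3.05 and 2.11 CPM in +Dox, from 71 to 258 estimated counts. The 2 groups did not overlap, but +Dox replicate 2 stood apart above the other +Dox libraries. The log2 fold change of SLC4A1 was 0.97 ± 0.245 (95% interval 0.44 to 1.5, adjusted p = 0.0172, edgeR), and without +Dox replicate 2 it was 0.75 with an adjusted p of 0.0868. The call was also missed with a transcript length offset (0.96, adjusted p = 0.0525).

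EPB42 (protein 4.2, a member of the transglutaminase family without enzyme activity that binds band 3 and ankyrin; chromosome 15, 43197227 to 43221018, minus strand) had 16, 16 and 27 estimated counts in −Dox and 151, 179 and 92 in +Dox. These are 0.189, 0.205 and 0.361 CPM against 2.13, 2.12 and 1.13 CPM. The +Dox libraries were all above, with replicate 3 the lowest of them. EPB42 rose by 2.83 ± 0.345 on the log2 scale (95% interval 2.08 to 3.58), with an adjusted p of 1.7e-04 in edgeR, and it ranked 251 of 21045 genes by p. Even in +Dox the level of EPB42 remained low, at 0.864 ± 0.35 TPM (a level scaled for transcript length and depth; SD, n = 3).

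ANK1 (ankyrin-1, which joins β-spectrin to band 3; chromosome 8, 41653220 to 41896741, minus strand) was at 80.7, 86.2 and 86.2 CPM in −Dox and at 95.1, 96.1 and 92.8 CPM in +Dox. In CPM the groups did not overlap but lay close. In TPM they overlapped, at 14.43, 15.23 and 14.5 in −Dox and at 15.05, 17 and 13.93 in +Dox. ANK1 rose by 0.17 ± 0.048 on the log2 scale (adjusted p = 0.033, edgeR), the smallest among the 7 called. The call was lost in 8 of 14 alternatives, among them the omission of any 1 of the 6 libraries (adjusted p from 0.0592 to 0.102), the replicate block (adjusted p = 0.0944) and a transcript length offset (0.09, adjusted p = 0.476). An opposite-strand lncRNA (ENSG00000253389) overlaps 7.55% of its exon bases and had 0.293 and 0.245 CPM in −Dox and +Dox.

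Of the spectrin lattice itself, SPTB (β-spectrin; chromosome 14, 64746283 to 64879907, minus strand) rose from 26.2, 27.9 and 28 CPM to 42.1, 41.0 and 38.3 CPM. Each +Dox library exceeded all −Dox libraries by more than 10 CPM. SPTB thus differed by 0.56 ± 0.058 on the log2 scale (adjusted p = 4.47e-05, edgeR). PLEKHG3 lies on the opposite strand over 23% of its exon bases, at 0.149 and 0.218 CPM.

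Among the proteins of the actin junction, TMOD1 had the smallest p. TMOD1 (tropomodulin-1, which caps the pointed end of the short actin filaments; chromosome 9, 97501180 to 97601743, plus strand) was at 33.0, 34.0 and 35.3 CPM in −Dox and at 69.7, 68.6 and 64.1 CPM in +Dox. The gap between the groups was wider than the range within either. TMOD1 rose by 0.98 ± 0.055 on the log2 scale (95% interval 0.87 to 1.1, adjusted p = 2.32e-07, edgeR), rank 19 by p, and just under the limit of a DEG. TMOD1 shares 45.3% of its exon bases with TSTD2 on the opposite strand, a gene at 31.1 and 32.5 CPM whose own log2 fold change was 0.07 (adjusted p = 0.535, edgeR).

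DMTN (dematin, which bundles actin; chromosome 8, 22048995 to 22082527, plus strand) was at 24.3, 28.2 and 28.2 CPM in −Dox and at 40.3, 37.5 and 39.4 CPM in +Dox. DMTN rose by 0.54 ± 0.067 on the log2 scale (adjusted p = 1.91e-04, edgeR). ADD2 (β-adducin, which caps the fast-growing end of the actin filament and recruits spectrin; chromosome 2, 70607618 to 70768225, minus strand) was at 33.4, 34.7 and 35.4 CPM in −Dox and at 44.2, 46.4 and 41.2 CPM in +Dox. ADD2 rose by 0.35 ± 0.059 on the log2 scale (adjusted p = 0.00153, edgeR). Neither gene had overlapping groups. ADD2 lies 518 kilobases from PCBP1 on the same chromosome, and the cassette sits at AAVS1 on another chromosome. Any bearing of these positions on ADD2 was not tested.

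EPB41 (protein 4.1R, which strengthens the contact of spectrin with actin; chromosome 1, 28887091 to 29120046, plus strand) was the most abundant member and the least changed. EPB41 was at 243.3, 245.7 and 239.2 CPM in −Dox and at 255.9, 252.1 and 267.9 CPM in +Dox. The groups were apart by a few CPM, and the log2 fold change of 0.09 ± 0.044 (95% interval 0.00 to 0.19, adjusted p = 0.193, edgeR) did not pass the test in this fit or in any of 14 alternatives.

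TMCC2 (a transmembrane and coiled-coil domain protein; chromosome 1, 205227946 to 205285632, plus strand) was low, with 94 to 186 estimated counts. TMCC2 was at 1.62, 1.32 and 1.26 CPM in −Dox and at 1.80, 2.20 and 2.19 CPM in +Dox. The groups did not overlap, and the log2 fold change was 0.56 ± 0.191 with an adjusted p of 0.0667 (edgeR). It passed in DESeq2 (0.55, adjusted p = 0.0496) and without −Dox replicate 1 (0.68, adjusted p = 0.0477).

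Per length, the order of the members in −Dox was EPB41 (49.99 ± 1.24 TPM), ANK1 (14.7 ± 0.443), DMTN (14.0 ± 0.719), ADD2 (10.3 ± 1.12), TMOD1 (10.1 ± 0.305), SPTB (3.84 ± 0.135), TMCC2 (0.344 ± 0.0492), SLC4A1 (0.225 ± 0.0594) and EPB42 (0.126 ± 0.0301), as mean TPM ± SD of 3 libraries. The libraries of ANK1 and DMTN overlapped, as did those of ADD2 and TMOD1, so neither pair has an order. In +Dox, TMOD1 (19.7 ± 1.21 TPM) and DMTN (19.4 ± 0.886 TPM) overlapped, both ahead of ANK1 (15.3 ± 1.55 TPM). EPB42 was last in −Dox and above TMCC2 and SLC4A1 in +Dox by mean, with libraries that overlapped those of both in +Dox. Band 3 was thus listed at under 1 TPM in both groups while SPTB averaged 3.84 and 5.55 TPM and ANK1, ADD2, DMTN and TMOD1 had means above 10 TPM.

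The members were read beside other genes of the membrane. Of 12 skeleton partners, 4 were called higher and 0 lower (edgeR), with a median log2 fold change of 0.07. Beside them, 8.16% and 7.68% of all genes were called higher and lower. Those called included TPM1 (a tropomyosin that lines the junction filament, 0.37, adjusted p = 0.00246), CAPZA2 (a subunit of an actin capping protein, 0.26, adjusted p = 0.00197) and ADD1 (α-adducin, 0.19, adjusted p = 0.0494). The call of ADD1 was lost in 10 of 14 alternatives, which were the omission of −Dox replicate 1 or 2 or of any of the 3 +Dox replicates (adjusted p from 0.0781 to 0.166), RLE factors (0.0596), a summed count above 10 (0.0649), the replicate block (0.0755), coding transcripts (0.0593) and a transcript length offset (0.09 on the log2 scale, adjusted p = 0.504). That of TPM1 was lost when only coding transcripts were summed (0.30, adjusted p = 0.0725). CAPZB, a further subunit of that protein, stood at 0.13 (edgeR, adjusted p = 0.128). The actins and MYH9 were among the 8 that were not called, with ACTB the most abundant of the list.

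Of 18 integral membrane partners, 17 were tested, 14 were called higher and 2 lower, with a median log2 fold change of 0.41. RHCE, the carrier of the Rh C and E antigens, rose from 4.74, 5.47 and 5.89 CPM to 21.7, 19.5 and 22.0 CPM (1.98 ± 0.093 on the log2 scale, adjusted p = 8.98e-08), and RHD by 1.54 ± 0.075 on the log2 scale (adjusted p = 1.05e-07). RHCE and RHD are near-identical copies, and reads could be split between them uncertainly. KEL (the Kell protein, 0.93, adjusted p = 5.38e-07) also rose. STOM (stomatin, an integral protein of the inner leaflet) fell, from 145.4, 142.0 and 142.7 CPM to 83.9, 88.1 and 90.4 CPM (−0.71 on the log2 scale, adjusted p = 1.03e-06). All these p-values are from edgeR, and ACKR1, with at most 1 count in a library, was not tested. Among the 2 lists together, 18 of 29 tested genes were called higher and 2 lower, beside 8.16% and 7.68% of all genes.

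**Figure D2:**
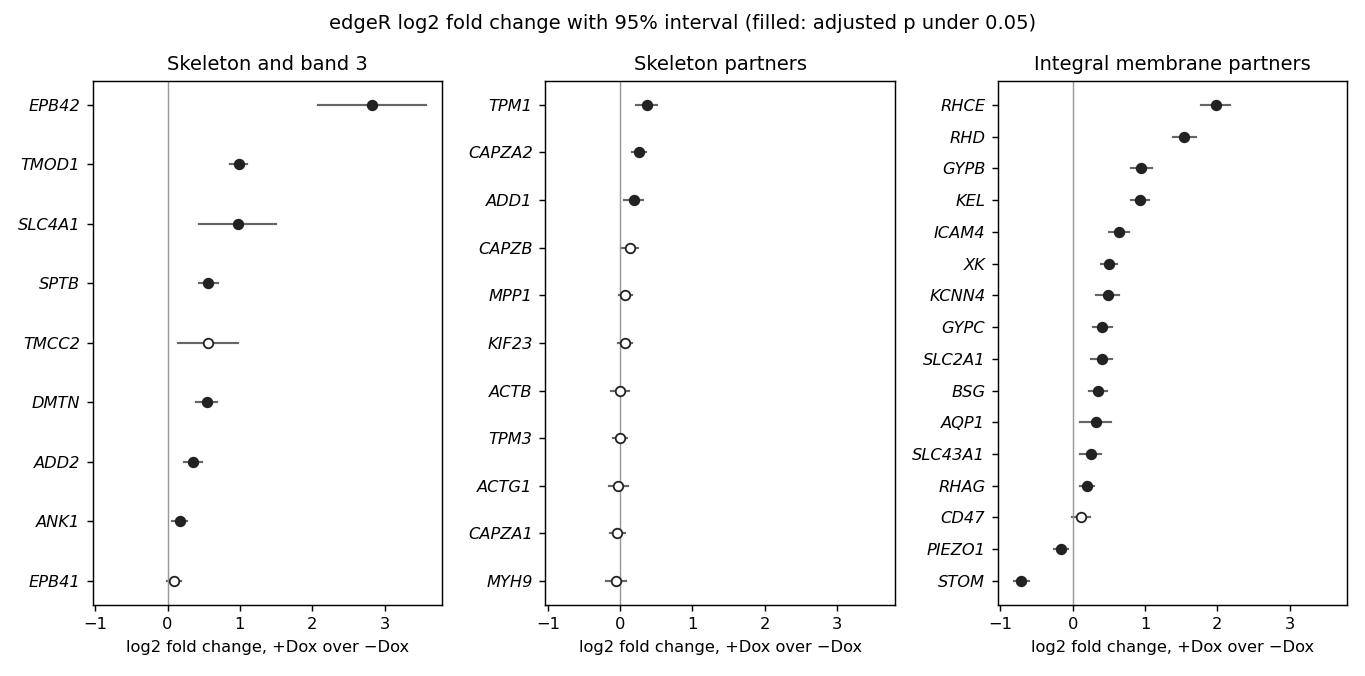
Log2 fold change of +Dox over −Dox (edgeR, x axis) with its 95% interval for the members and for most of the tested partners in the skeleton and among the integral membrane proteins; filled points passed an adjusted p of 0.05. EPB42 lies farthest to the right among the members at 2.83, RHCE among the integral partners at 1.98, and STOM farthest to the left at −0.71.

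Most members of these families expressed in other tissues were not called. Of 24 such paralogs 22 were tested, with 3 called higher, 2 lower and 17 neither, and a median log2 fold change of −0.02, beside 8.16% and 7.68% of all genes called higher and lower and a median of 0.006. SPTAN1 (the α-spectrin of most tissues) fell by 0.43 on the log2 scale (adjusted p = 0.0227, edgeR), and SPTBN1 (its β-spectrin partner) fell by 0.19 (adjusted p = 0.0315, edgeR). The call of SPTAN1 was lost in 5 of 14 alternatives, namely without −Dox replicate 3 or either of +Dox replicates 1 and 2 (adjusted p from 0.0837 to 0.108), with a length offset (0.11) and with coding transcripts (0.0808). That of SPTBN1 was lost in 6, without −Dox replicate 2 or 3 or +Dox replicate 1 or 2 (adjusted p from 0.0715 to 0.122), with the replicate block (0.0641) and with a length offset (0.103). TGM2 (tissue transglutaminase, a relative of protein 4.2; 0.42, adjusted p = 4.47e-04), EPB41L4A (0.81, adjusted p = 0.0101) and TMOD2 (0.23, adjusted p = 0.0445) were the paralogs called higher. The EPB41L4A call was lost without +Dox replicate 1 (adjusted p = 0.0536) and with a length offset (0.307). The TMOD2 call was lost in 9 of 14 alternatives, without −Dox replicate 1 or 3 or any of the 3 +Dox replicates (adjusted p from 0.0588 to 0.154) and with RLE factors (0.052), a summed count above 10 (0.0629), the replicate block (0.0851) and coding transcripts (0.056).

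Of the 9 members, 8 were also set against 1 paralog each within the same libraries, as a ratio of CPM values. Several families have more than 1 paralog, and the pairs were picked after the values were seen, so the ratios are a description with no test. The ratio of SPTB to SPTBN1 went from 0.465 ± 0.0108 to 0.785 ± 0.0665 (SD, n = 3) and that of TMOD1 to TMOD3 from 0.358 ± 0.0147 to 0.736 ± 0.0578. In 6 of 8 pairs the +Dox ratios were all above the −Dox ratios, and in the other 2 (ADD2 to ADD3 and TMCC2 to TMCC1) the groups overlapped. Ratios of other gene pairs were not computed, so this count has no share to be read against. The CPM of all 9 members already lay apart between the groups, against 17.4% of all genes. Among the paralogs left unpaired, ANK2 (−0.15, adjusted p = 0.549, edgeR) did not pass the test. ANK3 (−0.27, adjusted p = 0.0606), EPB41L2 (−0.13, adjusted p = 0.119), SLC4A2 (0.03, adjusted p = 0.812), ADD3 (0.14, adjusted p = 0.0673), TMOD3 (−0.05, adjusted p = 0.504) and TMCC1 (0.22, adjusted p = 0.16) did not pass the test (edgeR). ANK3 passed in 5 of 14 alternatives, with DESeq2 (adjusted p = 0.0304), all genes (0.0239), at least 10 counts in every library (0.0384), coding transcripts (0.0341) and without +Dox replicate 3 (0.0178), and stood at −0.12 (0.673) with a length offset. ADD3 passed with DESeq2 (adjusted p = 0.0485).

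**Figure D3:**
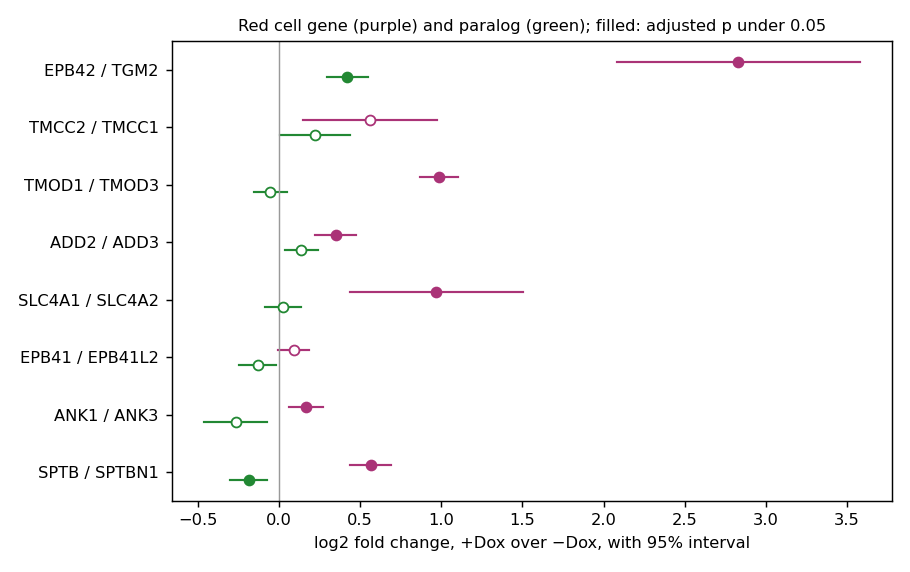
Log2 fold change (edgeR, x axis, with 95% interval) of each red cell gene in purple and of its paralog in green, in 8 pairs; filled points passed an adjusted p of 0.05. SPTB lies to the right of 0 and SPTBN1 to the left, and TMOD1 lies at 0.98 with TMOD3 at −0.05.

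Transcript choice was examined for ANK1 and EPB41, since both are spliced by stage. ANK1 had 16 annotated transcripts. ANK1-205, a long form of 42 exons, held 50.3%, 46.5% and 53.1% of the gene's TPM in −Dox and 54.2%, 51.4% and 53.6% in +Dox. ANK1-214, a short coding form of 2012 bases and 14 exons that starts inside the gene at position 41693929, held 22.6%, 24.4% and 25.3% in −Dox and 17.6%, 16.3% and 22.1% in +Dox. The ANK1-214 groups did not overlap, and the change in its log2 ratio to the other transcripts was −0.47 (95% interval −0.97 to 0.03, adjusted p = 0.671, limma). ANK1-210, with 2 exons and no defined coding sequence, held 12.5% ± 2.15 and 12.8% ± 3.30 (SD, n = 3). By start site, the group at positions 41797593 to 41797622 gave 64.4%, 59.8% and 63.5% in −Dox and 67.6%, 67.6% and 64.9% in +Dox (adjusted p = 0.818, limma).

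EPB41 had 40 annotated transcripts, of which EPB41-231 held 60.3%, 59.9% and 61.3% of the TPM in −Dox and 57.3%, 61.2% and 58.2% in +Dox. The change in its log2 ratio was −0.10 (95% interval −0.48 to 0.29, adjusted p = 0.908, limma). EPB41-231 lacks the 63-base exon shown above and begins at the first start group, positions 28887091 to 28887172, which gave 74.1% of the TPM in −Dox and 77.8% in +Dox (adjusted p = 0.816, limma). A further start group, at 28914544 to 28914626, gave 5.92% and 4.68% (adjusted p = 0.778, limma).

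**Figure D4:**
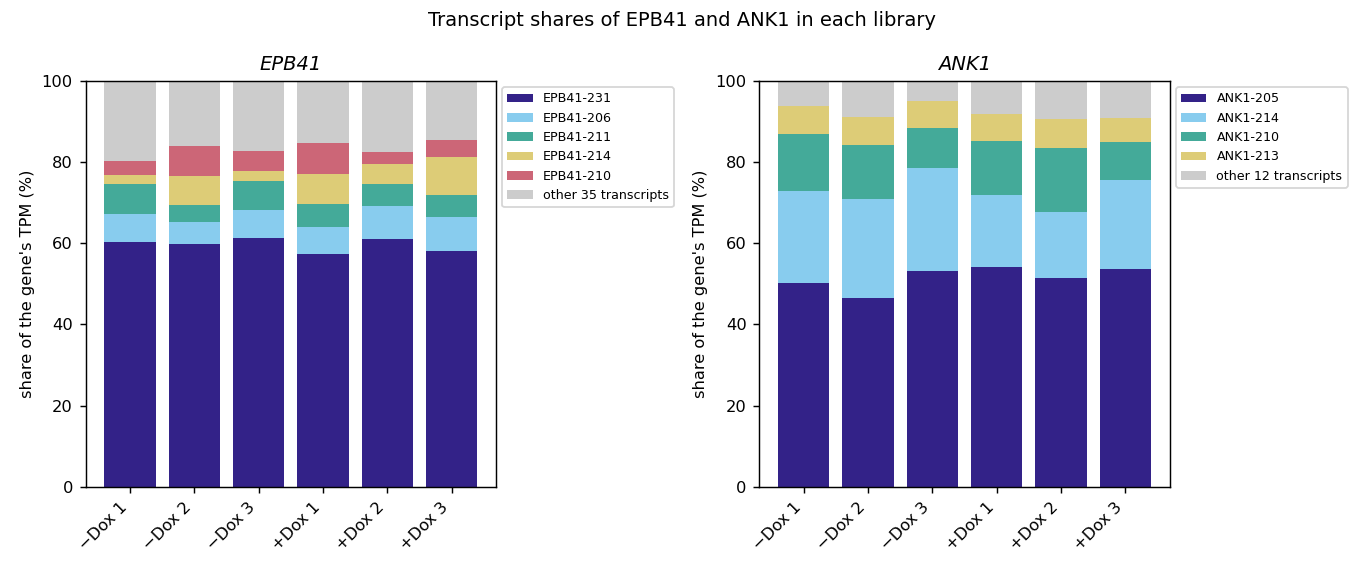
Share of each gene's TPM (y axis, percent) held by its annotated transcripts in the 6 libraries, for EPB41 (left) and ANK1 (right); transcripts with a mean share of at least 5% have a color, and the other 35 and 12 are in grey. EPB41-231 fills about 60% of EPB41 in every library, and the ANK1-214 segment is 24.1% on average in −Dox and 18.7% in +Dox.

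The 63-base exon was included in 9.73%, 7.77% and 9.71% of the TPM of transcripts with the same neighbouring exons in −Dox, and in 10.0%, 11.0% and 11.9% in +Dox, a comparison of 1 including with 10 skipping transcripts. The +Dox values were all above, by little. The log2 ratio changed by 0.30 (95% interval −0.25 to 0.85, adjusted p = 0.8, limma). Over all 34 annotated transcripts that span the exon, whatever their neighbours, 15 include it, and inclusion was 17.96%, 18.2% and 17.1% in −Dox and 18.4%, 18.1% and 22.9% in +Dox. These groups overlapped (exact two-sided permutation test, p = 0.2), and without replicate 3 the +Dox libraries stood at 18.4% and 18.1%. The skipped form was therefore the more abundant in all 6 libraries.

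4.1R can be translated from an upstream or a downstream start codon, and the downstream start gives the shorter form known from mature red cells. Transcripts annotated with the downstream start (position 28993489) held 86.3%, 90.8% and 87.4% of the coding TPM of EPB41 in −Dox and 91.8%, 91.5% and 91.8% in +Dox. Those with the upstream start (position 28987438) held 11.2%, 8.27% and 11.4% in −Dox and 6.39%, 6.93% and 7.31% in +Dox. Neither pair of groups overlapped. This grouping of transcripts was made after the values were seen and is given with no test. EPB41-205, 1 of the transcripts with the upstream start, held 3.40%, 0% and 3.66% of the gene's TPM in −Dox. In +Dox it held 0%, 0.303% and 0%. The −Dox libraries with EPB41-205, replicates 1 and 3, were those with the higher upstream shares, so the gap between the groups depends on this transcript. The 213-base exon that carries the downstream start was read between neighbouring exons that end at 28987905 and begin at 28997215. It was included in 99.7% of the TPM in −Dox replicates 1 and 3 and 99.6% in replicate 2, and in 99.8%, 99.9% and 99.9% in +Dox. It was the only member exon with an unadjusted p under 0.05 (adjusted p = 0.7, limma). With the right neighbour at 29011865, its inclusion was 88.18%, 83.79% and 80.5% in −Dox and 86.35%, 84.43% and 80.28% in +Dox. These groups overlapped and were not tested.

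**Figure D5:**
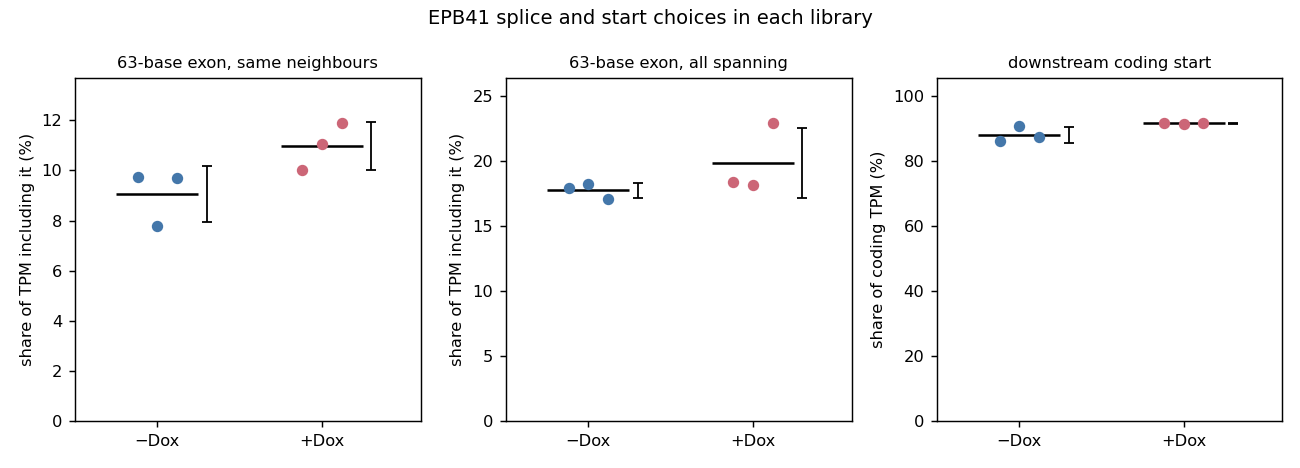
EPB41 in each library, with y axes in percent from 0: inclusion of the 63-base exon between the same neighbours (left) and over all spanning transcripts (middle), and the share of coding TPM from the downstream start (right); points are libraries, lines group means and bars 1 SD (n = 3). The downstream start averages 88.1% in −Dox and 91.7% in +Dox, and inclusion of the exon is at most 22.9% in any library.

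Over all members, 0 of 20 tested transcript shares, 0 of 15 start site shares and 0 of 30 skipped exons were called by limma at an adjusted p under 0.05 (exons also over 5 percentage points), against 0.0899%, 0.0747% and 0% of all those tested. At an unadjusted p under 0.05 there were 1, 0 and 1, against 7.5%, 6.96% and 7.06%. The 1 transcript was ADD2-205, at 14.2%, 15.0% and 14.6% of the TPM of ADD2 in −Dox and 6.71%, 9.25% and 10.95% in +Dox (adjusted p = 0.622, limma). With the variance as a trend on count, estimated counts or a pseudocount of 1 TPM, limma still called 0 of the member features. In simulated data at these depths, limma recovered 39% of transcript shares and 9% of exons with a log2 change of 3 and none of either at 1.5, although changes were placed only in features with a mean of at least 10 counts on both forms. For start site shares the recovery was 48% and 6%. With the variance trend it was 63% and 21% for transcripts, 58% and 32% for start sites and 19% and 2% for exons.

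Among the remaining members, TMOD1-201 held 97.5% ± 2.65 in −Dox and 95.1% ± 3.71 in +Dox, SPTB-202 held 88.4% ± 2.14 and 88.9% ± 3.86, and SLC4A1-201 held 100% in all libraries. EPB42 had too few reads for its shares to be read, with EPB42-201 between 0% and 100% in the −Dox libraries. DMTN was divided among DMTN-202 (24.9% and 23.4%), DMTN-223 (21.2% and 27.7%) and DMTN-210 (17.4% and 13.6%), as means in −Dox and +Dox, with overlapping groups in each case. ADD2-204 held 40.1% and 40.7%.

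The 5 genes of at least 1 CPM whose log2 CPM, centred on the −Dox mean, came nearest to the median of the members over the 6 libraries were ICA1, RUSF1, ENSG00000270956, LINC00888 and AHI1-DT. The median of the members was −0.06, 0.02 and 0.04 in −Dox and 0.59, 0.59 and 0.56 in +Dox. The sum of squared differences from it was 0.00276 for ICA1 and 0.0137 for AHI1-DT, among 14322 genes.

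The regulators and the cell type markers were read beside the members. Of 9 erythroid transcription factors, 2 were called higher and 1 lower, beside 8.16% and 7.68% of all genes. Those higher were KLF1 (0.46, adjusted p = 0.00121) and TAL1 (0.44, adjusted p = 8.34e-05), and the one lower was LMO2 (−0.20, adjusted p = 0.0219, edgeR), a call lost without −Dox replicate 2 or 3 or +Dox replicate 2 or 3 (adjusted p from 0.0599 to 0.0995) and with the replicate block (0.0658). GATA1 (0.12, adjusted p = 0.113) and NFE2 (−0.10, adjusted p = 0.171) did not pass. Of 11 erythroid markers, 5 were called higher and 2 lower, beside 8.16% and 7.68% of all genes. ALAS2, the first enzyme of heme synthesis in red cells, rose by 1.53 on the log2 scale (adjusted p = 2.5e-08), AHSP, the chaperone of α-globin, by 1.76 (adjusted p = 6.86e-06) and HEMGN by 0.57 (adjusted p = 6.86e-06), while TFRC, the transferrin receptor, fell by 0.34 (adjusted p = 8.56e-04). HBZ, the embryonic ζ-globin, was the other marker called lower, from 129.1, 159.3 and 136.7 CPM to 113.7, 104.0 and 104.3 CPM (−0.40 on the log2 scale, adjusted p = 0.00213, edgeR). HBG1, HBE1 and HBG2, the fetal and embryonic globins of the β cluster, stood at −0.12 (adjusted p = 0.219), −0.13 (adjusted p = 0.211) and 0.02 (adjusted p = 0.899) and were not called (edgeR). The summed level of the 11 markers was 8670, 9813 and 8819 CPM in −Dox and 9242, 8516 and 8921 CPM in +Dox, most of it from globins, with HBG2 the most abundant.

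Among 12 megakaryocyte markers, 5 were tested and 1 was called, beside 15.8% of all genes called in either direction, namely TUBB1 (0.95, adjusted p = 4.81e-05, edgeR), with ITGA2B at 0.21 (adjusted p = 0.0873, and 0.00847 with coding transcripts), ITGB3 at −0.41 (adjusted p = 0.147), GP1BB at 0.12 (adjusted p = 0.584) and GP1BA at 0.26 (adjusted p = 0.623). The summed level was 47.3, 61.2 and 63.5 CPM in −Dox and 68.8, 63.5 and 70.3 CPM in +Dox, mostly GP1BB, and 3 markers (PF4, TREML1 and SELP) had 0 counts in every library while PPBP, VWF and GP9 had at most 10 counts. Among 10 myeloid markers, 4 were tested and only LYZ was called, lower beside 7.68% of all genes (−0.47, adjusted p = 0.00837, edgeR), with CD33 at −0.14 (adjusted p = 0.216), FCGR3A at −0.81 (adjusted p = 0.139) and ITGAM at 0.35 (adjusted p = 0.62). Their summed level was 141.7, 165.1 and 190.5 CPM in −Dox and 118.0, 117.0 and 136.9 CPM in +Dox, mostly LYZ. Any part of these markers in the rise of the members was not tested. In bulk samples fewer cells of a type and less RNA per cell cannot be told apart.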

How the data were processed

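The authors quantified each polyA library (paired-end, 150 cycles) with Salmon 1.10.2 and deposited, per transcript, estimated counts, which are not scaled for depth or length, and TPM values, which Salmon scaled for effective length. The index, strand and bias settings are not given in the sources used here, and counts of overlapping opposite-strand genes are therefore uncertain. Of 252045 transcripts, 251612 matched GENCODE 44 (GRCh38, 251142 with the version), and 433, with 0.125% to 0.138% of counts, did not.

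Counts were summed per gene (62252 genes), rounded, and tested with edgeR 4.0.16 in R 4.3.3 (glmQLFit, glmQLFTest, TMM, factors 0.974 to 1.03) where the mean count was above 10. DEGs had to pass an adjusted p of 0.05 and move by more than 1 on the log2 scale. SE values were derived from the quasi-likelihood statistic. Transcript, start site (starts joined within 200 bases) and skipped exon shares were computed from TPM and tested with limma 3.58.1 on log2 ratios with a pseudocount of 0.1 TPM, for genes of at least 1 TPM. The alternatives were DESeq2 1.42.0, RLE factors, 3 other count filters, a length offset, coding transcripts alone, other pseudocounts, estimated counts, a variance trend, each library left out and the replicate block.

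Replicate pairs differed by more than sampling noise (chi-square per gene 8.16 to 17.5), and none were merged. On simulated data made from these libraries (21045 genes), edgeR called 63 of 100 genes changed by 1 on the log2 scale and 88 of 100 changed by 2, with 15 unchanged genes called. The genes named are PCBP1, the 9 members, their paralogs, up to 5 genes of each list by p, the 5 nearest in pattern and, outside this rule, most of the untested markers and the globins. Some genes of the lists stay in the counts, medians and summed levels but are not reported by name here. The members and the lists were chosen with earlier results of these data known. The paralog pairs, the EPB41 coding start groups and ANK2 were chosen after their values were seen. Letters for a CACCC box were searched in promoters in 2 forms, the second picked after the first was counted, and neither is reported. The simulation of shares was redrawn from counts, with changes only in features of at least 10 counts on both forms, after a first version on the log scale recovered no change. Tables were made with Python 3.11.15, pandas 2.3.3 and scipy 1.17.1. The knockdown, chelation and binding experiments were not analysed here.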

Additional observations from a re-analysis of the deposited data

How the results depend on the processing

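Between 5 and 8 members were called higher in the 14 alternatives (7 in the main fit), and SPTB, DMTN, ADD2, TMOD1, EPB42 and PCBP1 kept their direction and call in each. The total called moved as well. Of 21045 genes, 3333 were called in either direction in the main fit, 1883 with a length offset (5 members) and 3961 with DESeq2 (8 members). With a library left out, 1 to 3 members were DEGs, as SLC4A1 passed the limit of 1 without −Dox replicate 2 or 3 or +Dox replicate 1 or 3, and TMOD1 without −Dox replicate 3 or +Dox replicate 3. Of the partners and paralogs, 21 were called higher and 4 lower in the main fit, beside 8.16% and 7.68% of all genes. The 21 stood at 16 to 22, and the 4 at 2 with a transcript length offset, 2 with the replicate block, 1 to 4 with a library left out and 5 with DESeq2, all genes or at least 10 counts in every library. Same-numbered libraries did not deviate together (correlations 0.008, −0.060 and −0.003). These correlations cannot show whether same-numbered samples were grown or handled together. The replicate block moved the genes called from 3333 to 2490, and of the members ANK1 alone lost its call (adjusted p = 0.0944). Signs were followed over the settings for 53 genes, not for every gene of the lists. Among these 53, sign changes were seen in 4 genes that were not called: HBG2 (−0.023 to 0.068 with a library left out), SLC4A2 (−0.036 with a length offset, −0.024 to 0.058 with a library left out), GP1BB (−0.048 to 0.236 with a library left out) and ITGAM (−1.13 with a length offset). The downstream EPB41 start share differed by 2.61 to 4.89 percentage points with a library left out and by 3.46 from estimated counts, against 3.55. The share tests called 0 member features in each alternative. The coding-transcript, variance-trend, all-spanning and EPB41 start alternatives were chosen after seeing the data. At under 2 TPM, EPB42, SLC4A1 and TMCC2 are limited by depth.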
